A study of Mus musculus with 1 sample.

Results

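The genes described here are 2 lysozymes (Lyz1 and Lyz2), 3 genes of the whey acidic protein (WAP) domain family (Wfdc17, Wfdc21 and Slpi), the siderophore binder Lcn2, the oxidase subunit Cybb and the granule proteoglycan gene Srgn. These 8 genes were chosen by name as host-defence genes of the macrophage, and no measured value entered the choice rule. Earlier results of these data were known when the choice was made. Of the 8, 7 were among the 11918 genes of the expression table, and Lcn2 was not analysed here. The cells were alveolar macrophages (AMs) sorted by flow cytometry as CD45+ CD11c hi Siglec-F hi cells from the digested lung of 1 wild-type mouse of 8–12 weeks, which carried floxed Hdac3 and no Cre, on an FVB/NJ background backcrossed to C57BL/6. This was the 1 library (WT, n = 1), captured with the 10x Genomics 3′ v2 chemistry, so that no test between animals was possible and every interval below covers counting error only. The Hdac3-deleted library of the study was not analysed here.

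The table held 2055 cells with a median of 3278 unique molecular identifiers (UMIs, each standing for 1 captured transcript) and a range of 1143–8603, which made 7222978 UMIs in all. Of 14 AM marker symbols, 13 had measured values, among them Cd9 with a UMI in 100% of cells, Plet1 in 92.2% and Siglecf in 41.4%. Genes of other cells were read as a measure of free RNA or of stray cells. Of 14 lung epithelial markers 12 were measured, among them Epcam with a UMI in 58.1% of cells. Sftpc, the surfactant protein C gene of alveolar type 2 cells, had a UMI in 6.86% of cells, and Scgb1a1, the secretoglobin of club cells, in 5.50%. Of 6 B and plasma cell markers 3 were measured, with Jchain in 3.21% of cells and at most 940 UMIs of it in a cell. Of 11 neutrophil markers 4 were measured, with S100a8 in 10.1% of cells and at most 23 UMIs of the list in a cell. In the 1645 cells without any UMI of that list, the levels of the 7 members were 0.914 to 0.987 times those in all cells.

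Alveolar macrophages live on the surface of the airspace, where they take up microbes, debris and surfactant. Lysozyme cuts the peptidoglycan of bacterial cell walls, and the mouse has a pair of neighbouring genes for it, Lyz2 (the M type of myeloid cells) and Lyz1 (the P type, known from Paneth cells). WAP-domain proteins are small secreted proteins, of which Slpi inhibits elastase and cathepsin G of neutrophils. Cybb encodes gp91phox, the catalytic subunit of the phagocyte NADPH oxidase, which is held in the membrane, and Srgn encodes serglycin, which packs cargo in secretory granules, so that neither is itself a secreted antimicrobial or antiprotease. Lcn2 binds bacterial siderophores.

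Both pairs of related members lie close to each other in the genome (GRCm38, the mm10 build used by the authors, GENCODE M21 annotation). Lyz2 lies at chr10:117277331-117282321 and Lyz1 at chr10:117287797-117292868, both on the minus strand and 5475 bases apart. Wfdc17 lies at chr11:83703991-83706268 and Wfdc21 at chr11:83746940-83752642, both on the plus strand and 40671 bases apart. Slpi lies at chr2:164354070-164389095, Srgn at chr10:62493833-62527451 and Cybb at chrX:9435252-9487771, all 3 on the minus strand.

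The lysozyme pair is shown by sequence because its members differed most in level while they were alike at their start sites. The windows below run from 250 bases before to 50 bases after the RefSeq start of each gene (GRCm38.p6, minus strand, chr10:117292819-117293118 for Lyz1 and chr10:117282223-117282522 for Lyz2), 5′ to 3′, and capitals mark bases that differ or face a gap when the 2 windows are aligned end to end.
Lyz1: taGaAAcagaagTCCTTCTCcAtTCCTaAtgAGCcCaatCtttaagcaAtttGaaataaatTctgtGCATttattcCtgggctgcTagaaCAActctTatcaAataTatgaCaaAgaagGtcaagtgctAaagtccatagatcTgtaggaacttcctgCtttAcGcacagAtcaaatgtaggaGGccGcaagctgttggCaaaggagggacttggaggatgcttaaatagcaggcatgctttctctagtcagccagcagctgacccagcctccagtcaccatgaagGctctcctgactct
Lyz2: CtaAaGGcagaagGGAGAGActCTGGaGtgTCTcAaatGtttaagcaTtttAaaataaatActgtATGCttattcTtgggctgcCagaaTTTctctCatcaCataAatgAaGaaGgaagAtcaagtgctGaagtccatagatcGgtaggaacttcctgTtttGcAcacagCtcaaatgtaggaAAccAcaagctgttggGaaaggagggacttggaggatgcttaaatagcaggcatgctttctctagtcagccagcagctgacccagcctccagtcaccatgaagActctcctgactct
The windows had the same base in 249 of 302 aligned columns (82.5%), and in 141 of the last 150 (94%), with an unbroken identical run of 86 columns around the start. The motif AGGAAGT, a core that ETS-family factors such as PU.1 can bind, was searched on both strands and was present in both lysozyme windows, within an identical stretch. It was found in 9.35% of 32851 RefSeq promoter windows of the same length. Windows were matched by symbol for 7 of the 8 genes, and the motif was in none of those of Wfdc17, Slpi, Lcn2, Cybb and Srgn.

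The 7 members took 2.09% of all UMIs (151312 UMIs, 95% Poisson interval 2.08–2.11%), and a single gene, Lyz2, made 78.8% of this sum. Per cell, the share of the members ranged from 0.243% to 6.87% with a median of 1.87%. The other 6 members together took 0.444% of UMIs. Levels are given below as UMIs per 10000 UMIs, a scale on which 1 UMI in a cell of median depth equals 3.05. With 3′ counting, a transcript gives 1 UMI whatever its length.

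Lyz2 stood at 165 UMIs per 10000 (interval 164–166), the third highest of all genes after Tmsb4x (239) and the ferritin gene Fth1 (168). It had a UMI in every one of the 2055 cells, and the lowest cell still held 18.2 per 10000, the median cell 144 and the highest 640. The central cells lay between 102 (the 25th percentile) and 195 (the 75th). Lyz2 was thus counted in every cell, among them the cell with 940 UMIs of Jchain. A UMI count does not separate a cell's own transcripts from free RNA. Cells that do not express Lyz2 could therefore not be told apart, and the part of free RNA was not tested.

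Lyz1, its neighbour, stood at 1.21 per 10000 (interval 1.13–1.29, 872 UMIs), 137-fold below Lyz2. It was found in 30.7% of cells (95% exact binomial interval 28.7–32.8%), with 449 cells holding 1 UMI, 140 holding 2 and 42 holding 3 or more, and at most 6 in a cell. The part of free RNA in this share was not tested.

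The WAP-domain genes covered a range of levels. Slpi stood at 11.9 per 10000 (interval 11.7–12.2) and was found in 85.9% of cells, with a median cell of 8.18 and a highest cell of 100 per 10000. Wfdc21 was close to it, at 10.7 per 10000 (10.4–10.9) in 85.5% of cells, with a median cell of 8.60 and a highest cell of 79.9. The cells highest in Slpi stood above those highest in Wfdc21, while the medians were alike.

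Wfdc17, known as a WAP-domain gene of activated macrophages, had the more uneven pattern. Its level over all cells was 3.89 per 10000 (interval 3.75–4.03), yet the median cell held 0 and the highest cell 153. It had no UMI in 1065 cells, 1 UMI in 475, 2 to 4 in 382, 5 to 9 in 101 and 10 or more in 32. Those 32 cells, 1.56% of the population, held 25.1% of its UMIs.

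Among other genes of the same symbol family, chosen after their values were seen, Wfdc10 had 763 UMIs in 23.6% of cells. Wfdc2 and Wfdc18 had 7 and 4 UMIs. The r of Wfdc10 over cells was between −0.01 and 0.04 with the 3 WAP-domain members.

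Cybb stood at 11.8 per 10000 (interval 11.6–12.1) and was found in 94.1% of cells, with a median cell of 10.8 and a highest of 58.3. At about the same level as Slpi it was thus found in more cells, and its highest cells were lower. Srgn stood at 4.93 per 10000 (4.77–5.09) in 72.3% of cells, with a median cell of 3.98 and a highest of 40.5.

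A share of cells with a UMI depends on depth. When each of the 1756 cells with at least 2000 UMIs was thinned to 2000, the shares were 19.4% for Lyz1, 37.5% for Wfdc17, 59.5% for Srgn, 76.3% for Slpi, 78.0% for Wfdc21, 87.0% for Cybb and 100% for Lyz2. The order of the members was that of the full depth, apart from Slpi and Wfdc21, whose intervals overlapped in both cases (74.2–78.3% and 76.0–79.9% after thinning). All 7 members had a UMI in 242 cells at full depth (11.8%), and 5 members were the most frequent number (646 cells).

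**Figure D1:**
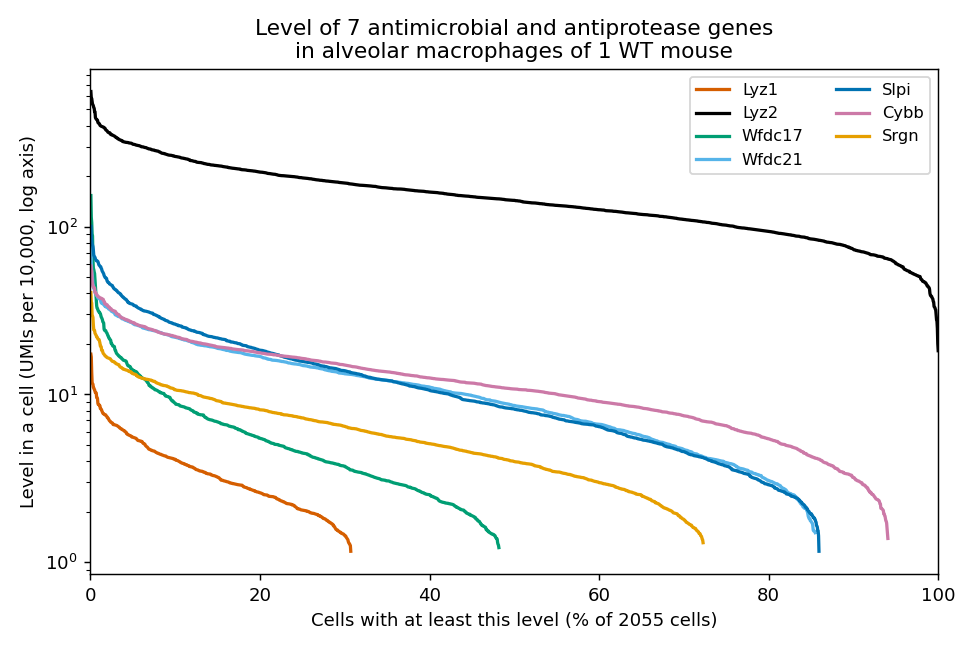
Level of each member in each of the 2055 cells, with cells ranked from the highest on the horizontal axis (percent of cells) and UMIs per 10000 on a logarithmic vertical axis. A curve ends where cells without a UMI begin: Lyz2 spans all cells from 640 to 18.2 per 10000, whereas Wfdc17 is steep at its left end and stops at 48.2% of cells, and Lyz1 stops at 30.7%.

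The spread over cells was next compared with what counting error alone would give. The measure was the excess squared coefficient of variation (CV), in which 0 means no spread beyond Poisson counting at each cell's depth. Over the 2087 genes with at least 500 UMIs its median was 0.0957, and the top 10% (208 genes) began at 0.336. Of the 7 members 4 were in the top 10%, Wfdc17 (5.19, rank 12), Slpi (0.720, rank 89), Wfdc21 (0.391, rank 168) and Lyz1 (0.384, rank 171). Srgn was just outside (0.322, rank 221), Lyz2 followed at 0.203 (rank 435), and Cybb was the least spread (0.137, rank 745).

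All 3 WAP-domain members were in this top group and the oxidase subunit was not, although Wfdc21 stood at rank 253 after thinning to 2000 UMIs, outside of it. As a square root, the excess CV came to 228% of the mean for Wfdc17, 84.9% for Slpi, 45.1% for Lyz2 and 37.0% for Cybb. The 21 cells highest in Wfdc17 (1% of cells) held 19.5% of its UMIs, against 5.61% for Slpi, 4.09% for Wfdc21, 2.94% for Lyz2 and 2.53% for Cybb. When the 1% of cells highest in each gene was left out for every gene, 6 members were in the top 10% and Wfdc17 stood at rank 22. With genes of at least 100 UMIs included the top 10% held 1 member, Wfdc17 (rank 48 of 6147).

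**Figure D2:**
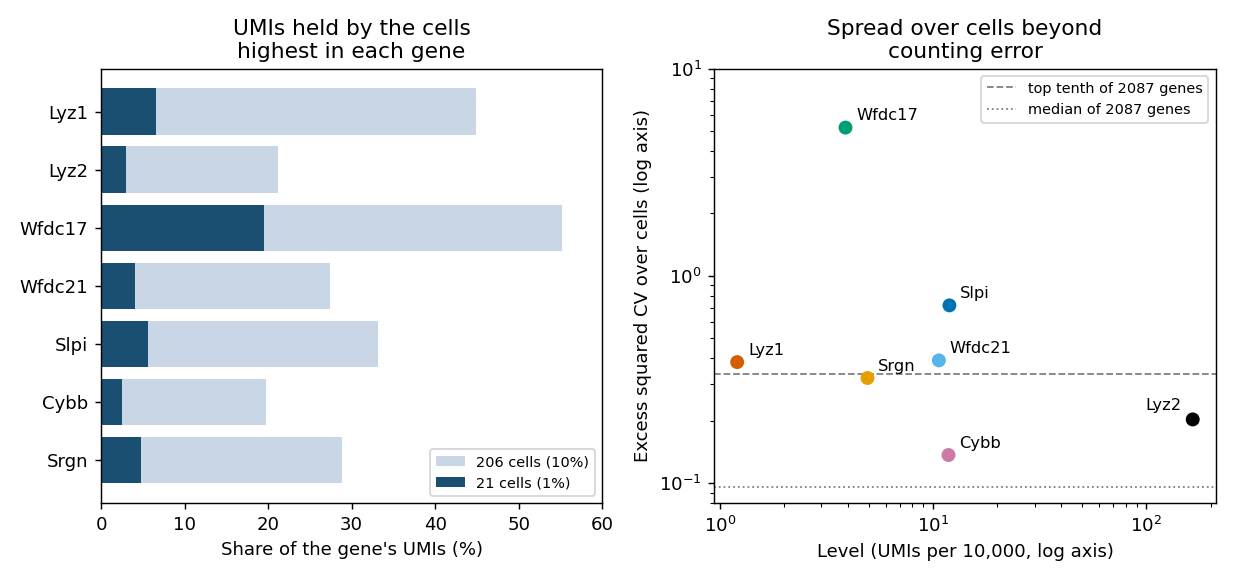
Left, share of each member's UMIs held by the 21 (dark) and the 206 (light) cells highest in it, in percent. Right, excess squared CV over cells against the level in UMIs per 10000, both on logarithmic axes, with the median (dotted) and the start of the top 10% (dashed) of 2087 genes: Wfdc17 stands highest at 5.19, and Lyz2 and Cybb lie between the lines.

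Depth moved with several levels. From the quintile of cells with the fewest UMIs to the quintile with the most, the level of Lyz2 went from 137 to 185 per 10000, that of Slpi from 9.93 to 12.5, that of Wfdc17 from 3.14 to 5.31, and that of Cybb from 13.5 to 11.6. Correlations were therefore taken over the authors' scaled scores, from which depth and mitochondrial share had been regressed out. They are descriptions over 2055 cells of 1 library, whose cells share depth, free RNA and handling.

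Of the 21 pairs of members, 2 had a Pearson r of at least 0.2, Lyz1 with Lyz2 (r = 0.28) and Lyz2 with Slpi (r = 0.25). Wfdc17 with Wfdc21 came next (r = 0.19), then Lyz2 with Wfdc21 (r = 0.11). The median over the pairs was 0.03, and 13 pairs lay within 0.05 of 0. The lowest r was −0.01, for Lyz1 with Srgn.

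Counting error lowers such an r. When the UMIs of each cell were divided at random into 2 sets, the log level of a gene in the one set correlated with that in the other at r = 0.74 for Lyz2, 0.42 for Wfdc17, 0.40 for Slpi and 0.36 for Wfdc21, against 0.14 for Srgn, 0.12 for Cybb and 0.10 for Lyz1. The median over the 2087 genes was 0.05. Each set holds fewer UMIs than the cell and depth was not regressed out, so these values are no upper limit for the r above. The low r of Cybb and Srgn with the other members was thus measured with genes that repeat poorly at this depth, and no lack of a relation can be read from it.

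**Figure D3:**
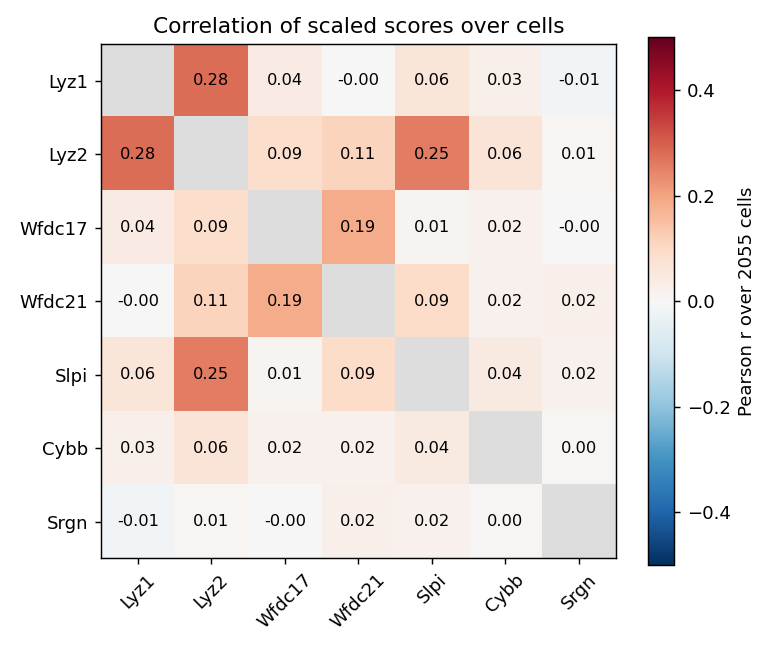
Pearson r over 2055 cells for each of the 21 pairs of members, from the deposited scaled scores, with red for positive and blue for negative values. The Lyz2 row holds the 2 highest values, 0.28 with Lyz1 and 0.25 with Slpi, and the Cybb and Srgn rows are near 0.

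The pairs were also read as levels. Cells were divided into quintiles of 411 cells by the level of Lyz2. Slpi stood at 6.91 per 10000 (interval 6.44–7.41) in the lowest quintile and at 15.9 (15.3–16.5) in the highest, a ratio of 2.30, with 9.51, 12.3 and 13.2 in the quintiles between. Wfdc17 went from 2.51 to 5.52 (2.20-fold) and Wfdc21 from 8.73 to 12.2 (1.40-fold). Cybb (11.4 and 12.0) and Srgn (4.80 and 5.36) differed little between the same quintiles. The 5 genes outside the members that were most like Lyz2, given below, had ratios between 1.55 (Chil3) and 2.28 (Ctss). The share of all genes past such ratios was not taken. The median depth of the lowest and highest quintiles was 2571 and 3745 UMIs, and the part of depth in these ratios was not tested.

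Across quintiles by the level of Wfdc21, its neighbour Wfdc17 went from 2.73 per 10000 (2.45–3.03) in the lowest to 6.05 (5.66–6.46) in the highest. Slpi went from 10.3 to 13.5 over the same quintiles. The ratio was 2.22 for Wfdc17 and 1.32 for Slpi. Car4, a gene outside the members, went from 4.17 to 8.47, a ratio of 2.03. The share of all genes past such ratios was not taken.

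The lysozyme pair was examined further. Lyz1 took 0.726% of lysozyme UMIs (exact binomial interval 0.679–0.776%). From the lowest to the highest quintile of cells by Lyz2, the level of Lyz1 went from 0.471 per 10000 (0.354–0.615) to 2.16 (1.94–2.40), a ratio of 4.58, while Lyz2 itself went from 71.8 to 279, a ratio of 3.88. The Lyz1 share of lysozyme UMIs was 0.652% in the lowest quintile, then 0.699%, 0.820% and 0.629%, and 0.768% in the highest. The intervals of the lowest and highest quintiles overlapped (0.490–0.850% and 0.689–0.853%). The excess squared CV of Lyz1 was 0.384 when the UMIs of the cell were taken as its exposure and 0.0825 when its lysozyme UMIs were. Relative to lysozyme UMIs, Lyz1 was thus less spread over cells than relative to all UMIs.

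The transcripts of the pair are alike, which bears on how reads were assigned. Of the 203 tags of 98 bases (the length of the sequenced read) within the last 300 bases of Lyz2, 7 were identical to a Lyz1 tag and 50 (24.6%) differed from one at 2 bases or fewer. The ends of the other 5 measured members shared no such tag with any other gene. Whether Lyz2 reads counted as Lyz1 contribute to the low and proportional Lyz1 level was not tested.

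**Figure D4:**
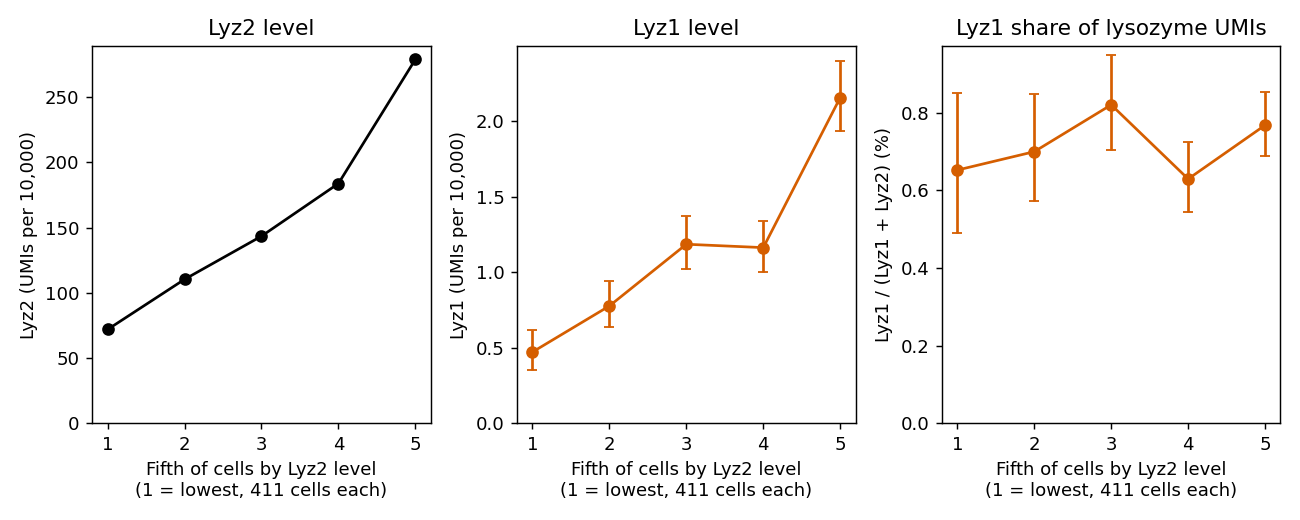
Levels of Lyz2 and Lyz1 (UMIs per 10000) and the Lyz1 share of lysozyme UMIs (%) in quintiles of 411 cells by Lyz2 level, with 95% counting intervals for Lyz1. Both levels are higher in the last quintile than in the first, 3.88-fold for Lyz2 and 4.58-fold for Lyz1, and the share stays between 0.629% and 0.820%.

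For each member the 5 other genes with at least 500 UMIs that were most like it over cells were taken by the r of scaled scores. Those of Lyz2 were Cd9 (0.48) and the lysosomal protease Ctss (0.48), the Fc receptor chain Fcer1g (0.39), B2m of MHC class I (0.39) and the chitinase-like Chil3 (0.38). Those of Lyz1 were B2m (0.15), Cd9 (0.14), Ctss (0.13), Tyrobp (0.12) and Cyba (0.10), of which 3 were also among those of Lyz2. Between the lowest and highest quintiles by Lyz2, Ctss went from 22.0 to 50.3 per 10000 and Cd9 from 43.8 to 92.6. Over all 2086 other genes, 19 (0.911%) had an r of at least 0.2 with Lyz2, against 2 with Slpi, 1 each with Lyz1 and Wfdc21 and 0 with Wfdc17, Cybb and Srgn. Members are included here: the 1 of Lyz1 was Lyz2, and those of Slpi were Lyz2 and Ctss. Genes that repeat poorly at this depth reach such an r less readily, so the counts do not rank the members.

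The 3 WAP-domain members had neighbours partly in common. Wfdc17 was most like the chemokine Ccl6 (0.17), the tetraspanin Cd63 (0.16), the carbonic anhydrase Car4 (0.15), Crip1 (0.14) and Fth1 (0.14). Wfdc21 was most like Car4 (0.21), Ccl6 (0.18), S100a11 (0.17), Cox6c (0.16) and Dbi (0.16), so that Car4 and Ccl6 were shared. Slpi was most like Ctss (0.22), the eosinophil-associated ribonuclease Ear1 (0.16), Crip1 (0.16), the oxidase subunit Cyba (0.16) and Cd9 (0.15). Slpi thus had Ctss and Cd9 in common with Lyz2, and Crip1 in common with Wfdc17.

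Cybb was most like mt-Co1 (0.13), the lipoprotein lipase Lpl (0.11), H2-K1 (0.11), Psap (0.10) and mt-Nd1 (0.10). Srgn was most like Il1b (0.13), the metallothionein Mt1 (0.12), Nr4a1 (0.12), Hilpda (0.12) and H3f3b (0.12). These r are low for both genes. Each of the 5 genes most like Lyz1 had at least 13737 UMIs, and abundant genes carry less counting error, which favours them in such a ranking.

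The other genes of the pathways were taken from fixed lists. For the NADPH oxidase, other genes of the complex were set beside Cybb. Cyba, which encodes p22phox, the membrane partner of Cybb, stood at 19.0 per 10000 in 96.7% of cells, above Cybb. The cytosolic subunit genes Ncf1 and Ncf4 were lower, at 1.20 and 0.237 per 10000, and the small GTPases Rac1, Rap1a and Rac2 stood at 6.23, 2.62 and 0.872. The r of Cybb was 0.01 with Cyba, 0.03 with Ncf1, 0.01 with Rac1, 0.02 with Rap1a and −0.02 with Rac2. Cyba had an r of 0.31 with Lyz2. Between 2 random sets of UMIs the r was 0.12 for Cybb and 0.74 for Lyz2, so these values cannot be set against each other.

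Of 25 other antiprotease gene symbols 12 had measured values, and 4 had at least 500 UMIs. The cystatins, inhibitors of lysosomal cysteine proteases, were the highest, with Cstb at 12.0 and Cst3 at 9.56 per 10000, levels like those of Slpi and Wfdc21. The intracellular serpins Serpinb1a and Serpinb6a followed at 2.40 and 1.37. The r of Slpi with the 4 lay between 0.02 and 0.08, and that of Lyz2 between 0.06 and 0.22.

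Of 30 other antimicrobial gene symbols 18 had measured values, and 5 had at least 500 UMIs. Chil3 stood at 136 per 10000, the ribonucleases Ear2 and Ear1 at 33.2 and 15.4, the lectin Lgals3 at 24.2 and the pore-forming Mpeg1 at 6.66. The r of Lyz2 with Chil3, Ear2 and Ear1 was 0.38, 0.33 and 0.30, and with Lgals3 and Mpeg1 it was 0.10 and 0.07. Of 10 relatives of lysozyme and lipocalin, Lyzl4 was measured, with 3 UMIs.

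Of 12 proteoglycan partner and synthesis genes 8 were measured. Cd44, a receptor that can bind serglycin, stood at 25.2 per 10000 in 99.2% of cells and had an r of −0.03 with Srgn. The chondroitin synthase Chsy1 stood at 0.698 per 10000 (r = −0.01). Of 9 acute-phase neighbours of Lcn2 and Slpi 7 were measured, and 5 had at least 500 UMIs: the transcription factor Cebpb at 29.8 per 10000, the NF-kB inhibitor Nfkbia at 3.92, Il1b at 1.94, Stat3 at 1.07 and Nfkbiz at 0.874. The r of Slpi with these 5 was between −0.07 and −0.04, and that of Srgn between 0.00 and 0.13.

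Finally, the members were compared between cell states. For each of 8 gene lists, the 10% of cells with the highest summed share of the list (206 cells) was set against the other 1849 cells. Such a group is a range of a score and no cell type. Between 36 (MHC class II) and 147 cells (immediate-early genes) lay within 10% of the limit. A ratio of levels of 1.5 or more, or its inverse, was counted. Of the 56 ratios of members, 4 passed. Over all genes tested, between 0.384% and 8.05% passed in a comparison. The median ratio over all genes of each comparison was between 0.946 and 1.00.

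In the cells high in Ctsk, Cd63 and Crip1, Wfdc17 stood at 9.10 per 10000 (8.44–9.80) against 3.27 (3.13–3.41) in the other cells, a ratio of 2.79, and was found in 68.0% against 46.0% of cells. Slpi stood at 19.0 (18.1–20.0) against 11.1 (10.8–11.4), a ratio of 1.71. Lyz1 had a ratio of 1.43, and the other 4 members were between 1.05 and 1.23. These were 2 of 7 members, beside 1.78% of the 2084 genes tested. The list holds Crip1 and Cd63, which are among the genes most like Wfdc17 by the correlations above. Crip1, which made 51.3% of the UMIs of the list, is also among those most like Slpi. Because the list was chosen with earlier results of these data known, the count of 2 members is no independent support. Without the 1% of cells highest in the member itself the ratio was 1.78 for Wfdc17 and 1.51 for Slpi.

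In the cells high in MHC class II genes (H2-Aa, H2-Ab1, H2-Eb1 and Cd74), which present antigen to CD4+ T cells, Wfdc17 stood at 6.49 per 10000 (5.94–7.09) against 3.57 (3.43–3.72), a ratio of 1.82. Here 1 of 7 members passed, beside 0.96% of genes. The ratio rested on few cells: without the 1% of cells highest in Wfdc17 it was 1.21, and the gene was found in 52.4% of the MHC class II-high cells and in 47.7% of the others. The remaining members had ratios between 1.04 (Slpi) and 1.28 (Lyz1).

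The 21 cells highest in Wfdc17 were also compared with all other cells. This reads the relation of Wfdc17 to the 2 gene lists above from its other side and is no separate support. The share of all genes past such folds in these cells was not taken. They held between 30.9 and 153 UMIs of Wfdc17 per 10000. In them H2-Ab1 stood at 7.36 per 10000 against 1.48 in all other cells (4.99-fold), Cd74 at 19.7 against 5.50 (3.59-fold), Cd63 at 8.23 against 1.89 (4.36-fold) and Ctsk at 8.88 against 2.18 (4.08-fold). Crip1 differed less, at 8.01 against 4.41 (1.82-fold). H2-Ab1 had a UMI in 42.9% of these cells and Cd63 in 81.0%. Among the members, Lyz1 was 1.91-fold, Wfdc21 1.75-fold, Lyz2 1.42-fold and Slpi 1.34-fold as high in them as in the other cells, and Srgn 0.744-fold. Lyz1 rested on 21 UMIs in these cells and Srgn on 34. The interval of Srgn in them (2.55–5.14 per 10000) covered its level in the other cells (4.94). Wfdc21 and Slpi were each found in 81.0% of these cells, against 85.5% and 86.0% of the others. The median depth of the 21 cells was 3983 UMIs against 3275.5, and whether some of them hold 2 cells was not tested.

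In the cells high in immediate-early genes (Fos, Jun, Egr1 and others, which respond within minutes to stimulation or tissue handling), Lyz1 stood at 0.784 per 10000 (0.587–1.03) against 1.25 (1.17–1.34), a ratio of 0.627. This was 1 of 7 members, beside 2.89% of genes. It was based on 53 UMIs and was 0.835 after thinning. Wfdc17 had a ratio of 0.755 and Srgn of 1.27.

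No member passed 1.5-fold in the other 5 comparisons. In the cells high in chemokine genes and Tnf, Srgn stood at 6.85 per 10000 (6.28–7.45) against 4.70 (4.53–4.87), a ratio of 1.46, while 3.17% of genes passed. In the cells high in cell cycle genes, where 5.8% of genes passed, Slpi stood at 8.90 against 12.3 per 10000 (ratio 0.721) and Lyz2 at 137 against 169 (ratio 0.812). In the cells high in lung epithelial genes, where 0.384% of genes passed, ratios lay between 0.806 for Lyz1 and 1.11 for Wfdc21. Epcam made 84.7% of the UMIs of this list and was found in 58.1% of cells, and without it, an alternative chosen after seeing the data, both ratios turned round (1.05 for Lyz1 and 0.903 for Wfdc21) and Slpi was the lowest at 0.813. The monocyte list was in effect a ranking by Fn1, the fibronectin gene, which made 96.3% of its UMIs and was found in 52.7% of cells. In the cells highest in it, where 0.863% of genes passed, ratios lay between 0.856 for Lyz1 and 1.26 for Wfdc17. In the cells with the highest mitochondrial share, where 8.05% of genes passed, Cybb had a ratio of 1.31 and Wfdc17 of 0.732, and the median depth of these cells was 2149.5 UMIs against 3386. Both ratios changed among cells of at most 5% mitochondrial UMIs, to 1.03 for Cybb and 1.68 for Wfdc17.

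**Figure D5:**
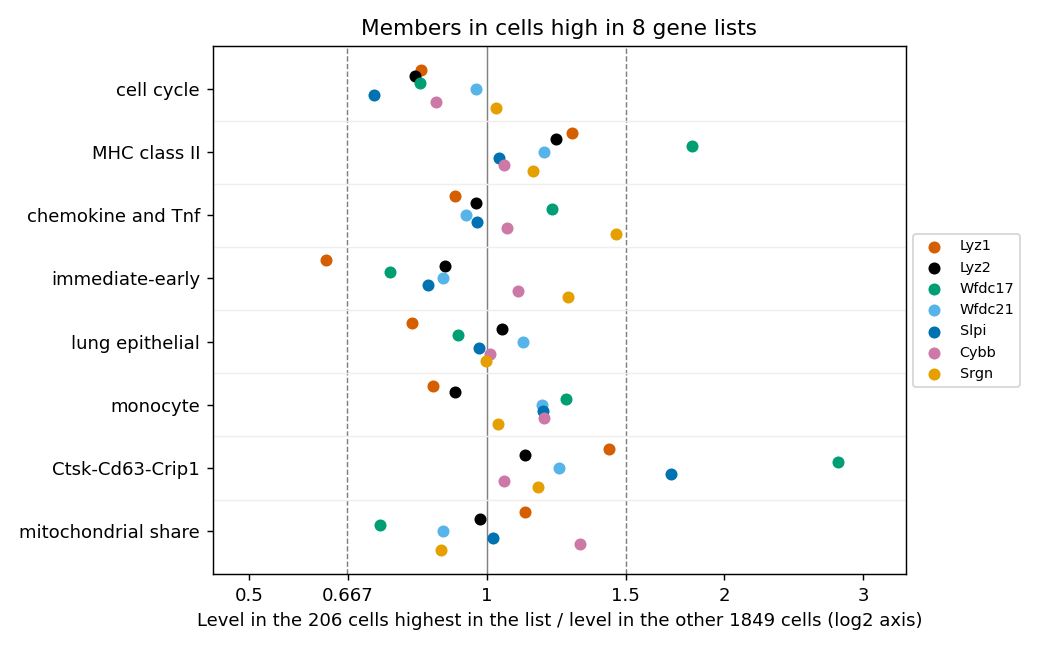
Ratio of the level of each member in the 206 cells highest in a gene list to that in the other 1849 cells, on a log2 axis, with dashed lines at 1.5-fold either way. Wfdc17 lies right of the line for 2 lists (2.79 and 1.82) and Slpi for 1 (1.71), Lyz1 lies left of it for immediate-early genes (0.627), and Lyz2, Wfdc21, Cybb and Srgn lie within the lines in every row.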

How the data were processed

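AMs of 1 WT mouse were profiled by the authors with 10x Genomics 3′ v2 single-cell RNA-seq and processed with Cell Ranger (mm10) and Seurat. The authors removed cells with few or many genes or a high mitochondrial share, and ribosomal, sex-linked and rarely found genes. The deposited log values are the natural log of 1 plus UMIs per 10000 in the cell. The deposited scaled scores are these after regression on UMIs and mitochondrial share, with a highest value of 10. Whole UMIs were recovered by dividing by the smallest step of each cell: 100% of values above 0 were whole within 0.01. Over the listed genes 384 cells exceeded 5% mitochondrial UMIs. Depth was 1143–8603 UMIs per cell. No doublet caller was run. Intervals are exact Poisson or binomial ones (95%). Counting and spread were checked on simulated data (Python 3, numpy, scipy). The genes named were the members, the 5 genes most like each, and fixed lists, of which 1 gene is not reported here. Members and lists were chosen with earlier results of these data known. Alternatives covered mitochondrial share, thinning, scale, cells highest in a gene, UMI minimum and group size. With 1 library, no group test was made.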

Additional observations from a re-analysis of the deposited data

How the results depend on the processing

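The members' share of UMIs was 2.01% as a mean over cells and 2.04% without the 1% of cells highest in each member, against 2.09%. The count of members in the top 10% of genes by excess spread was 1 in place of 4 with genes of at least 100 UMIs (6147 genes ranked). Pairs with an r of at least 0.2 were 1 in place of 2 after thinning, with Lyz1 and Lyz2 at 0.19. Ratios past the fold limit were 11 in place of 4 with the top 5% of cells, 1 at 2-fold, and 2 without the 1% of cells highest in the member, an alternative chosen after seeing the data. The share of all genes past the limit was not taken at these settings. Among the 11 were ratios in lists where no member passed with the top 10% of cells. They were Srgn for chemokines and Tnf (1.64), and Slpi (0.661) and Wfdc17 (0.651) for the cell cycle. Wfdc17 for the monocyte list (1.58), and Wfdc17 (0.554) and Wfdc21 (0.660) for the mitochondrial share were the others. The other 15 alternatives of the main results left the value within its interval or the count within 1.5 times. With cells of at most 5% mitochondrial UMIs, the Wfdc17 ratio in the 10% of cells highest in mitochondrial share was 1.68 in place of 0.732. That of Cybb was 1.03 in place of 1.31, and the cause of either change was not tested. Of the single members' values, 56 alternatives kept value or call, 16 moved a share beyond its counting interval and 8 lost the call. The 4 ratios past the fold limit kept their direction, but ratios nearer to 1 did not always: that of Lyz1 in the lung epithelial comparison was 1.15 after thinning in place of 0.806. A library of 1 mouse limits each value to that mouse. No paired analysis was possible because there was 1 library.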
